A study of Mus musculus with 4 samples.

Results

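Collagen genes were measured as messenger RNA in dermal cells of embryonic mouse skin. The genes were taken by name, as every gene symbol made of Col, a type number, the letter a and a chain number that had a usable estimate in each library. This gave 42 genes of 32871 named gene units. They fell into 11 fibrillar collagens, 9 FACIT collagens (fibril-associated collagens with interrupted triple helices), 8 basement membrane collagens and 14 others, which include type VI, the short-chain and the transmembrane collagens.

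Collagens are the main structural proteins of the dermis. Chains of each type fold into a triple helix in the endoplasmic reticulum, where prolines and lysines are hydroxylated, and fibrillar types are trimmed outside the cell and cross-linked into fibrils. In skin, types I and III form the bulk of the fibrils, type V sets their start and width, FACITs coat them, type VI forms beaded filaments around them, and type IV builds the sheet under the epidermis and around vessels and nerves.

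The cells came from mouse embryos with an Axin2-LacZ transgenic reporter, in which LacZ reports Axin2, a feedback gene of Wnt/β-catenin signalling. Skin of the ventral foot came from stage E17.5 and skin of the dorsal back from E14.5. The dermal tissue was digested with collagenase and hyaluronidase, and FACS separated reporter-positive from reporter-negative cells. Each skin gave 1 library labelled positive and 1 labelled negative. The labels read here do not tell how many embryos were pooled or whether the LacZ allele changes Axin2 itself. The study asked whether Wnt-responsive mesenchyme differs between body sites. With 1 library per group no difference had a replicate check and no test across replicates could be made. Site and stage changed together and cannot be told apart. Fewer cells of a type and less RNA per cell cannot be told apart in bulk RNA either.

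Levels are given as deposited, in FPKM (fragments per kilobase of transcript, scaled by mapped fragments), which is per length and so can be compared between genes of a library. Sets of 4 values are in the order foot labelled positive, foot labelled negative, back labelled positive and back labelled negative. The authors' lower and upper bounds stand in parentheses, and they cover the counting and assignment of reads in that library and not the spread between animals. Read depth is not stated in these files. The median half-width of the bounds for coding genes of at least 5 FPKM was 23.0%, 14.1%, 8.90% and 9.84% of the value, so the foot libraries were the less precise ones. Ratios between libraries are log2 of rescaled FPKM + 1, which understates changes of low genes, and the value after ± combines the bounds of both libraries. A gene is called higher or lower when this ratio was at least 1 in size, a 2-fold difference, and the larger FPKM was at least 5.

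Axin2, the reporter's own gene, was listed at 9.65 FPKM (7.10 to 12.5) in the foot library labelled positive and at 12.9 (10.2 to 15.3) in the one labelled negative, against the foot label with overlapping bounds. In the back it was listed at 4.49 (3.89 to 5.09) and 3.13 (2.63 to 3.64), in the direction of the label. These values are as deposited, and the rescaling used for ratios below would bring the libraries of each skin closer together. Foot results below therefore follow the label as deposited, and whether the foot labels were exchanged was not tested. All 8 dermal fibroblast markers checked, Pdgfra, Dpt, Lum, Dcn, Twist1, Twist2, Prrx1 and Thy1, were at 1 FPKM or more in every library, and summed to 2591, 3303, 1875 and 1651 FPKM.

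The bases just before the annotated start of 3 collagen genes are shown because the results turn on them: Col3a1 was the collagen with the highest level in 3 of the 4 libraries, Col5a1 was one of the fibrillar chains lower in the foot library labelled positive, and Col6a3 had the widest difference in the back. Each run is 120 bases from RefSeq on GRCm38.p6, 5′ to 3′ on the gene's strand, ending at the base before the start. Capitals mark TATAAA or GGGCGG, searched on both strands together with CCAAT and CTTTGA, the last a core of the motif bound by the Wnt effectors of the TCF/LEF family.
Col3a1, chr1:45311418-45311537, plus strand: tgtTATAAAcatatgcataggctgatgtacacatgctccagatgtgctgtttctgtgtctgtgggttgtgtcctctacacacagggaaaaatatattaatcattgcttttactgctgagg
Col5a1, chr2:27886305-27886424, plus strand: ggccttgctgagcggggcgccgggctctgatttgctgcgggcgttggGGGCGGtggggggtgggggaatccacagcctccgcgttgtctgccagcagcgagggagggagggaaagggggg
Col6a3, chr1:90843972-90844091, minus strand: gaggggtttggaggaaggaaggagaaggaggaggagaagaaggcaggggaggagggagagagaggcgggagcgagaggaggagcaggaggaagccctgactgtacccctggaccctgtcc
Col6a3 held none of the 4 motifs in these bases. RefSeq promoters were found for 34 of the 42 genes, with 37 windows from 250 bases before a start to 50 bases after it. GGGCGG was in 56.8% of these windows and in 44.1% of the windows of all coding genes, and CTTTGA in 24.3% against 12.6%. CCAAT was in 32.4% against 35.0%, and TATAAA in 13.5% against 11.2%. These matches describe letters only.

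Collagen transcripts were among the most abundant of these cells, and most of that abundance lay in 3 genes. The 42 genes made up 2.36%, 1.65%, 1.97% and 1.52% of the summed FPKM of coding genes. Col1a1, Col1a2 and Col3a1 together held 84.8%, 80.7%, 81.7% and 69.6% of the collagen sum. Without them the collagen share was 0.360%, 0.319%, 0.360% and 0.460%, highest in the back library labelled negative, which had the lowest share with them. Type VI took 5.98%, 8.32%, 10.1% and 22.4% of the collagen sum, with the highest part in the back library labelled negative. By named entries, FACITs took 4.20%, 3.81%, 2.64% and 1.93%, more in both foot libraries than in both back libraries. Basement membrane collagens took 0.420%, 0.767%, 0.951% and 1.42%, in the reverse order. Assembled loci without a gene name, described below, are in none of these shares. By length or whole, they would add 119 FPKM to the FACIT Col12a1 in the foot library labelled negative. To the FACIT Col16a1 they would add 35.4 in the back library labelled positive. Shares and their order were not recomputed with such loci. The plot of levels by class shows the 20 genes that reached 5 FPKM in any library. Another 9 peaked between 1 and 5 FPKM, and 13 stayed under 1 FPKM in all 4 libraries.

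**Figure D1:**
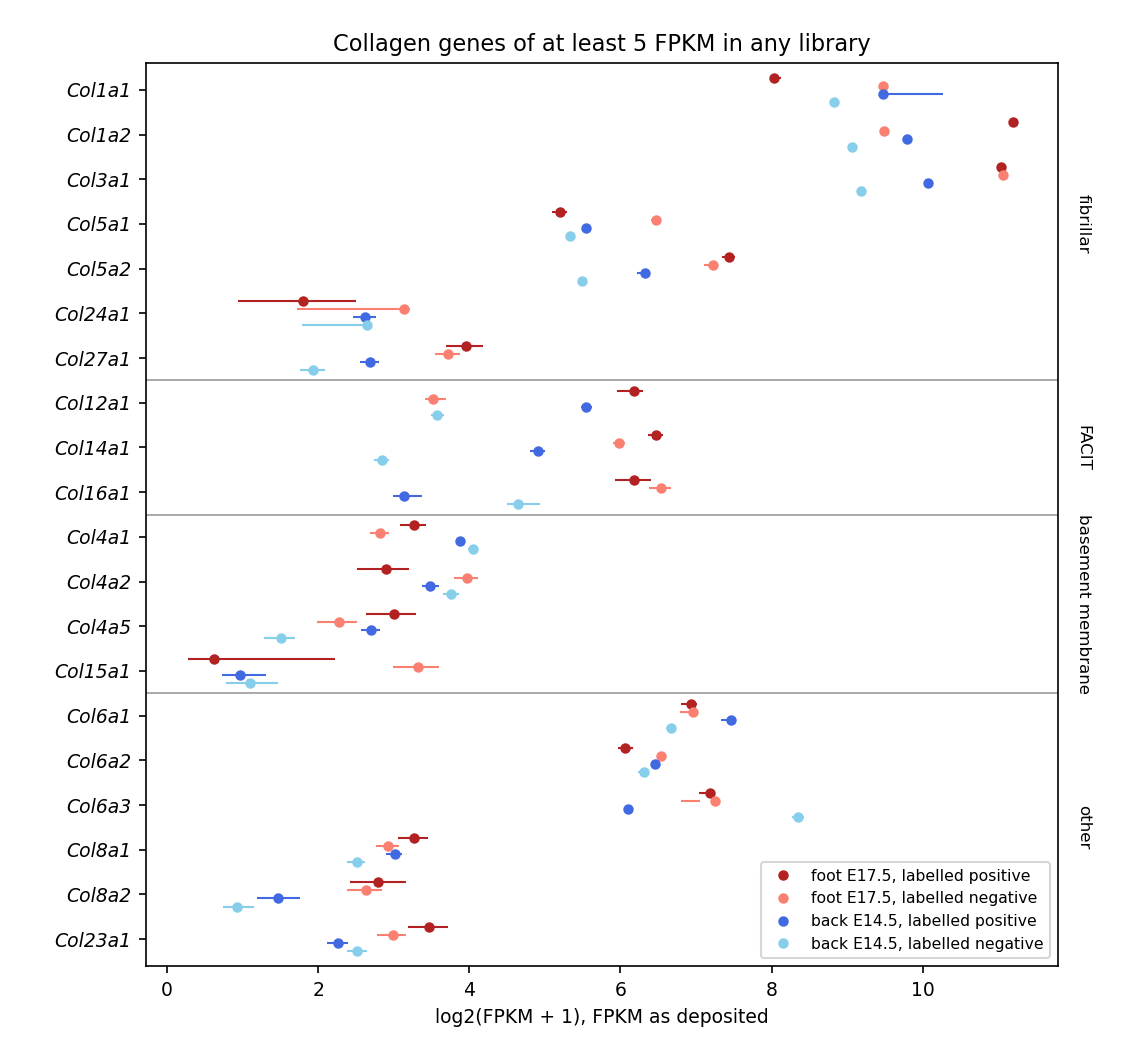
Levels of the 20 collagen genes of at least 5 FPKM in any library. The horizontal axis is log2(FPKM + 1) as deposited, points are single libraries coloured by skin and label, and bars are the authors' bounds. Fibrillar chains span the range from Col24a1, at 2.48 to 7.75 FPKM, to Col1a2 and Col3a1, at 2338 and 2100 FPKM in the foot library labelled positive.

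Several estimates of the strongest collagens lie outside their own deposited bounds, and the bounds of these genes are narrow. This held for 0 of 18, 5 of 19, 5 of 17 and 3 of 14 collagens of at least 5 FPKM, which is 0%, 26.3%, 29.4% and 21.4%. Among all coding genes of at least 5 FPKM the shares were 4.15%, 6.90%, 9.95% and 8.54%. Each such value is marked where it is printed. Values of exactly 0 were listed for 10, 6, 4 and 5 of the 42 genes, all of them weak collagens. Col4a3, Col6a4 and Col28a1 were listed at 0 in all 4 libraries.

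Type I collagen, the main fibril of skin, is a trimer of both its chains. Col1a2, which encodes the α2 chain, was listed at 2338 FPKM (2325 to 2413) in the foot library labelled positive, 716 (712 to 740) in the foot library labelled negative, 883 (889 to 908, a value below its bounds) in the back library labelled positive and 533 (533 to 549) in the back library labelled negative. It was highest in the foot library labelled positive, where it ranked 3 among 17785 coding gene units. Col1a1, which encodes the α1 chain, was listed at 262 (256 to 278), 713 (714 to 737, below), 712 (718 to 1234, below) and 454 (458 to 467, below). It was lowest in the library where Col1a2 was highest, and its rank there was 144. The ratio of Col1a1 to Col1a2 was 0.112 in that library and 0.996, 0.806 and 0.852 in the others, all on the FPKM scale.

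Part of the type I signal lay outside the named entries. Cufflinks also reports assembled loci without a gene name, and in the foot library labelled positive such a locus of 1.95 kb at the 3′ end of Col1a1 (mm9 chr11:94812414-94814358) had 1219 FPKM (1194 to 1267). Loci at the same end had 793 and 781 FPKM in the foot library labelled negative and the back library labelled positive, and none was found in the back library labelled negative. In the foot library labelled negative an unnamed locus of 2.17 kb at the 3′ end of Col1a2 (mm9 chr6:4489381-4491553) had 1884 FPKM (1866 to 1947). Added in proportion to their length, these loci brought Col1a1 to 662, 974, 920 and 454 FPKM and Col1a2 to 2341, 1482, 883 and 533. The ratio of the chains then became 0.283, 0.657, 1.04 and 0.852, still lowest in the foot library labelled positive.

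Type III collagen, the other main fibril of embryonic skin, is a homotrimer of the Col3a1 chain. Col3a1 was listed at 2100 FPKM (2094 to 2166), 2135 (2150 to 2194, below), 1071 (1078 to 1098, below) and 580 (583 to 596, below). Both foot libraries were above both back libraries, and the foot libraries were close to each other. Against it, Col1a2 stood at 1.11, 0.335, 0.825 and 0.92 times the Col3a1 level by named entries. Unnamed loci are in none of these ratios. An unnamed locus of 15.4 kb at the 3′ end of Col3a1 had 396 FPKM (50.5 to 91.3, far above its bounds) in the foot library labelled positive. Of its 15396 bases, 6855 lay past the annotated end of the gene. Adding it whole gave Col3a1 2496 FPKM there.

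Type V collagen nucleates the type I fibril. Col5a2, its α2 chain, was like Col3a1 higher in both foot libraries than in both back libraries, with 172 FPKM (162 to 182), 148 (137 to 148, above), 79.1 (73.8 to 78.5, above) and 44.1 (42.2 to 46.0). The genes lie tail to tail on chromosome 1, 24.4 kb apart in mm9. Col5a1, its α1 chain, was listed at 35.8 FPKM (33.3 to 38.2), 87.5 (83.8 to 91.9), 45.7 (45.2 to 47.4) and 39.3 (38.0 to 41.0). It was highest in the foot library labelled negative and lowest in the one labelled positive. The ratio of Col5a1 to Col5a2 was 0.208, 0.590, 0.578 and 0.891, so the α1 chain was the lower one in each library and most so in the foot library labelled positive, as in type I.

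The developmental fibrillar collagens were weaker. Col27a1 was listed at 14.504 FPKM (11.9 to 17.1), 12.2 (10.7 to 13.7), 5.43 (4.87 to 5.99) and 2.81 (2.37 to 3.26), higher in both foot libraries. Col24a1 was listed at 2.48 (0.912 to 4.63), 7.75 (2.30 to 8.25), 5.14 (4.49 to 5.79) and 5.25 (2.43 to 5.13, above). The bounds of its foot values overlapped, as did those of its back values. The fibrillar collagens of cartilage stayed low. Col11a1 was between 0.501 and 2.35 FPKM, Col2a1 between 0.213 and 1.2, and Col11a2 was listed at 0 in the foot library labelled positive and reached 0.107 elsewhere. Col5a3 reached 0.761 in the foot library labelled negative and was at most 0.139 in the other libraries. Of the cartilage markers, Matn1 was listed at 0 in all 4 libraries and Acan in all but the back library labelled negative, where it was at 0.0188 FPKM. The 11 cartilage markers found summed to 13.8, 6.02, 1.45 and 0.921 FPKM. The largest in the foot library labelled positive was Ucma, at 6.45 (1.76 to 11.1) and listed at 0 in the other libraries. Sox5 came next there, at 2.75 (0.412 to 8.6), with 0.558 (0.0983 to 2.04) in the foot library labelled negative. Between the same libraries Hapln1 (0.296 and 1.89) and Matn4 (1.37 and 1.71) went the other way.

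Among the FACITs, which bind to the surface of fibrils, only 3 of 9 reached 5 FPKM. Col12a1, the type XII chain found in dense connective tissue such as tendon and fascia, was listed at 71.2 FPKM (61.2 to 77.6), 10.5 (9.69 to 11.9), 45.7 (43.4 to 48.2) and 10.9 (10.3 to 11.7). Both libraries labelled positive were above both labelled negative. Its gene covers mm9 chr9:79446796-79566638. In the foot library labelled negative, however, an unnamed locus of 120 kb (mm9 chr9:79446796-79567216) covered the whole gene with 119 FPKM (90.4 to 107, above its bounds). Counting it, Col12a1 stood at 71.2, 129, 51.6 and 14 FPKM, and the foot library labelled negative was then the highest.

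Col14a1, the type XIV chain of interstitial dermis, was listed at 87.6 FPKM (81.5 to 93.8), 61.9 (58.6 to 65.6), 29.0 (26.8 to 31.1) and 6.15 (5.65 to 6.65). These 4 values did not overlap within their bounds, and no unnamed locus touched the gene. Col16a1, the type XVI chain, was listed at 71.6 FPKM (60.0 to 83.6), 91.6 (82.3 to 101), 7.77 (6.97 to 9.37) and 24.0 (21.5 to 29.7). Both foot libraries were above both back libraries. An unnamed locus of 3.12 kb at the 3′ end of Col16a1 had 59.2 FPKM (53.2 to 65.2) in the back library labelled positive alone. Of its 3115 bases, 429 lay on the gene and 2686 past its annotated end. Added by its full length it brought Col16a1 to 43.2 FPKM there, above the 24.0 of the back library labelled negative, and added by the part on the gene to 12.6, below it. The other 6 FACITs did not exceed 2.07 FPKM. These were the type IX chains Col9a1, Col9a2 and Col9a3, and Col19a1, Col20a1 and Col22a1. Col9a3 was the highest, at 1.5, 2.07, 1.77 and 1.45 FPKM.

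Basement membrane collagens were modest in these sorted dermal cells. Col4a1 and Col4a2, the chains of the type IV network common to all basement membranes, lie head to head on chromosome 8 and overlap by 22 bases in mm9. Col4a1 was listed at 8.63 FPKM (7.48 to 9.78), 6.04 (5.41 to 6.68), 13.7 (13.2 to 14.3) and 15.5 (14.8 to 16.2). Col4a2 was listed at 6.46 (4.73 to 8.23), 14.6 (12.9 to 16.4), 10.2 (9.33 to 11.1) and 12.5 (11.6 to 13.5). The ratio of Col4a1 to Col4a2 was 1.34, 0.413, 1.35 and 1.24, and only the foot library labelled negative had less Col4a1 than Col4a2. There an unnamed locus of 1.54 kb at the 3′ end of Col4a1 had 36.0 FPKM (29.5 to 36.8), which brought Col4a1 to 14.4.

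Col4a5, a chain of the X-linked type IV pair, was listed at 6.99 FPKM (5.22 to 8.78), 3.83 (2.97 to 4.69), 5.47 (4.91 to 6.08) and 1.83 (1.43 to 2.23). It was higher in the library labelled positive of each skin. Its partner gene Col4a6 starts 1.31 kb away on the other strand. By named entries Col4a6 stayed at 0.134 to 0.318 FPKM, so Col4a5 was 22.0, 28.5, 32.9 and 12.7 times as high. Unnamed loci over Col4a6 in the back would bring it from 0.167 to 0.629 FPKM in the library labelled positive. In the back library labelled negative they would bring it from 0.144 to 0.318. The order of these ratios therefore holds for the named entries alone. Col4a4 reached 0.0414 FPKM. Col15a1, a multiplexin that links basement membrane to the fibrils below, was listed at 0.543 FPKM (0.207 to 3.67), 9 (6.92 to 11.1), 0.947 (0.653 to 1.48) and 1.13 (0.721 to 1.77). It was high in the foot library labelled negative alone. The other multiplexin, Col18a1, was at 0.198 to 0.866 FPKM. The endothelial markers, whose cells also make type IV collagen, summed to 0.979, 0.461, 5.96 and 4.17 FPKM over 6 genes, with Pecam1 listed at 0 in both foot libraries, and the Schwann markers to 0.691, 10.7, 0.895 and 0.229 over 5 genes. Their part in the levels of these collagens was not tested. The anchoring fibril gene Col7a1 shares an entry with the microRNA gene Mir711, which the naming rule leaves out. That joined entry was at 6.18 FPKM (3.48 to 13.3), 2.62 (1.24 to 5.61), 9.12 (7.85 to 10.6) and 11.1 (9.56 to 12.7).

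Type VI collagen, the beaded filament around cells and fibrils, needs all 3 of its main chains. Col6a1, one of the short chains, was at 121 FPKM (111 to 128), 123 (110 to 123, above), 176 (160 to 169, above) and 101 (96.1 to 102). Col6a2, the other, was at 66.0 (61.5 to 70.6), 91.8 (88.3 to 96.2), 86.6 (85.3 to 89.8) and 78.2 (74.4 to 79.1). Neither was called in any pair of libraries after the rescaling used here. Col6a3, the long chain, was at 145 (131 to 150), 151 (111 to 132, above), 67.5 (66.0 to 70.7) and 325 (309 to 343). It was by far highest in the back library labelled negative, where it ranked 61 among coding genes. The ratio of Col6a3 to Col6a1 was accordingly 1.2, 1.23, 0.384 and 3.23. The unnamed loci on Col6a3 in the back were at 2.87 and 0.789 FPKM and left these levels where they were. In the foot library labelled negative unnamed loci at the 3′ ends had 297 FPKM (222 to 252, above) on Col6a1 and 434 (292 to 327, above) on Col6a3, which brought them to 223 and 183 FPKM. The alternative long chains were weak: Col6a6 reached 1.62 FPKM in the foot library labelled negative, Col6a5 at most 0.0451, and Col6a4 was listed at 0 throughout.

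The short-chain type VIII network was present at low levels. Col8a1 was listed at 8.65 FPKM (7.34 to 9.95), 6.60 (5.81 to 7.37), 7.07 (6.48 to 7.59) and 4.69 (4.23 to 5.15). Col8a2 was listed at 5.95 (4.35 to 7.92), 5.18 (4.22 to 6.15), 1.76 (1.29 to 2.37) and 0.903 (0.669 to 1.22), higher in both foot libraries. The ratio of Col8a1 to Col8a2 was 1.45 and 1.28 in the foot and 4.01 and 5.19 in the back. Of the transmembrane collagens, Col23a1 was listed at 10.0 FPKM (8.08 to 12.1), 6.92 (5.87 to 7.97), 3.80 (3.34 to 4.27) and 4.72 (4.21 to 5.24). Col25a1 (2.48 and 1.32 FPKM in the foot, 0.313 and 0.176 in the back) and Col13a1 (1.23 and 1.04, then 0.116 and 0.0674) were low. The bounds of Col25a1 were apart between foot and back for each label, and those of Col13a1 overlapped. Col17a1, a hemidesmosome protein of basal keratinocytes, was at 2.01, 0.636, 0.373 and 0.452 FPKM. The 5 keratinocyte markers found summed to 7.56, 0, 29.7 and 10.7 FPKM, mostly Krt10. Col10a1, the collagen of hypertrophic cartilage, reached 0.286 FPKM in the foot library labelled positive and was listed at 0 in the others.

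The foot comparison asks which genes go with the reporter label where sweat glands form. By the named entries, Col1a2 and Col12a1 were higher in the library labelled positive and Col1a1, Col5a1, Col24a1 and Col15a1 were lower. That is 2 higher and 4 lower of 20 collagens with enough signal, where 10.7% of all genes were higher and 11.0% lower. The 23 collagens with a mean of at least 1 FPKM had a median log2 ratio of 0.22, against 0.00 for all 11890 such genes. Col1a2 had a log2 ratio of 1.95 ± 0.04 and Col12a1 of 2.86 ± 0.21. Col1a1 had -1.2 ± 0.06, Col5a1 -1.03 ± 0.12, Col15a1 -2.42 ± 1.57 and Col24a1 -1.10 ± 0.89, the last with overlapping bounds.

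Adding the unnamed loci, a step chosen after the values were seen, took both higher calls away. Col12a1 then had -0.61, Col1a2 0.90 and Col1a1 -0.31, and the count was 0 higher and 3 lower. Col5a1, Col24a1 and Col15a1 remained lower, and no unnamed locus of that length lay on them in either foot library. Col4a2 (-0.84 ± 0.37), Col4a5 (0.90 ± 0.40) and Col14a1 (0.73 ± 0.13) were below 2-fold. Markers of other tissues differed between the same libraries. The 4 tendon markers found summed to 577 FPKM in the library labelled positive and 45.5 in the one labelled negative. Most of this was Thbs4, at 572 (153 to 209, far above its bounds) and 38.1 (34.9 to 41.4). The tendon regulator Scx was at 2.64 and 1.02, with overlapping bounds. Tnmd (0.178 and 1.81) and Fmod (1.97 and 4.63) went the other way. The 5 mast cell markers summed to 2.17 and 265 FPKM, the 6 muscle markers to 1.16 and 14.53 and the 5 bone markers to 11.1 and 22.1. The muscle sums were mostly Tnnt1 (0.978 and 12.6, with overlapping bounds), with Myog, Myod1 and Myh3 listed at 0 in both foot libraries. The bone sums were mostly Alpl (10.9 and 21.4), with Runx2 at 0.202 and 0.184 and Ibsp and Dmp1 listed at 0. The part of these markers in the collagen differences was not tested.

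In back skin, where hair forms, the same question was put to the sorted fractions. Col12a1, Col14a1 and Col4a5 were higher in the library labelled positive, and Col16a1 and Col6a3 were lower. That is 3 higher and 2 lower of 17 collagens, where 4.36% of all genes were higher and 3.92% lower. Col12a1 had a log2 ratio of 1.78 ± 0.11, Col14a1 of 1.88 ± 0.15 and Col4a5 of 1.06 ± 0.26. Col6a3 had -2.48 ± 0.09 and Col16a1 -1.74 ± 0.31. None of the 7 fibrillar collagens with enough signal reached 2-fold. Col3a1 (0.66 ± 0.02), Col5a2 (0.61 ± 0.07), Col27a1 (0.59 ± 0.22), Col1a2 (0.50 ± 0.03) and Col1a1 (0.42 ± 0.52) were above 0, while Col5a1 stood at 0.00 ± 0.06 and Col24a1 at -0.22 ± 0.36. The median over the 23 collagens was 0.32, against -0.01 for all genes.

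With the unnamed loci Col12a1 had 1.61 and Col6a3 -2.47 in the back, close to the values without them. Col16a1 turned to 0.61 with its whole unnamed locus, found in the library labelled positive alone, and stood at -1.10 with the part on the gene. Mast cell markers summed to 24.6 and 83.9 FPKM and the 5 leukocyte markers to 2.27 and 9.92, both lower in the library labelled positive, and dermal fibroblast markers to 1875 and 1651. Their part in the collagen differences was not tested. Col12a1 was the 1 collagen higher with the label in both skins by its named entry, and in the foot this call rests on the entry without its unnamed locus. No collagen was lower in both, and none was called in opposite directions, of 17 with enough signal in both. Among all 6142 such genes, 0.651% were higher in both, 0.602% lower in both and 0.830% called in opposite directions. With the foot labels exchanged, Col12a1 would be called in opposite directions, with a foot ratio of -2.86 beside the back ratio of 1.78.

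**Figure D2:**
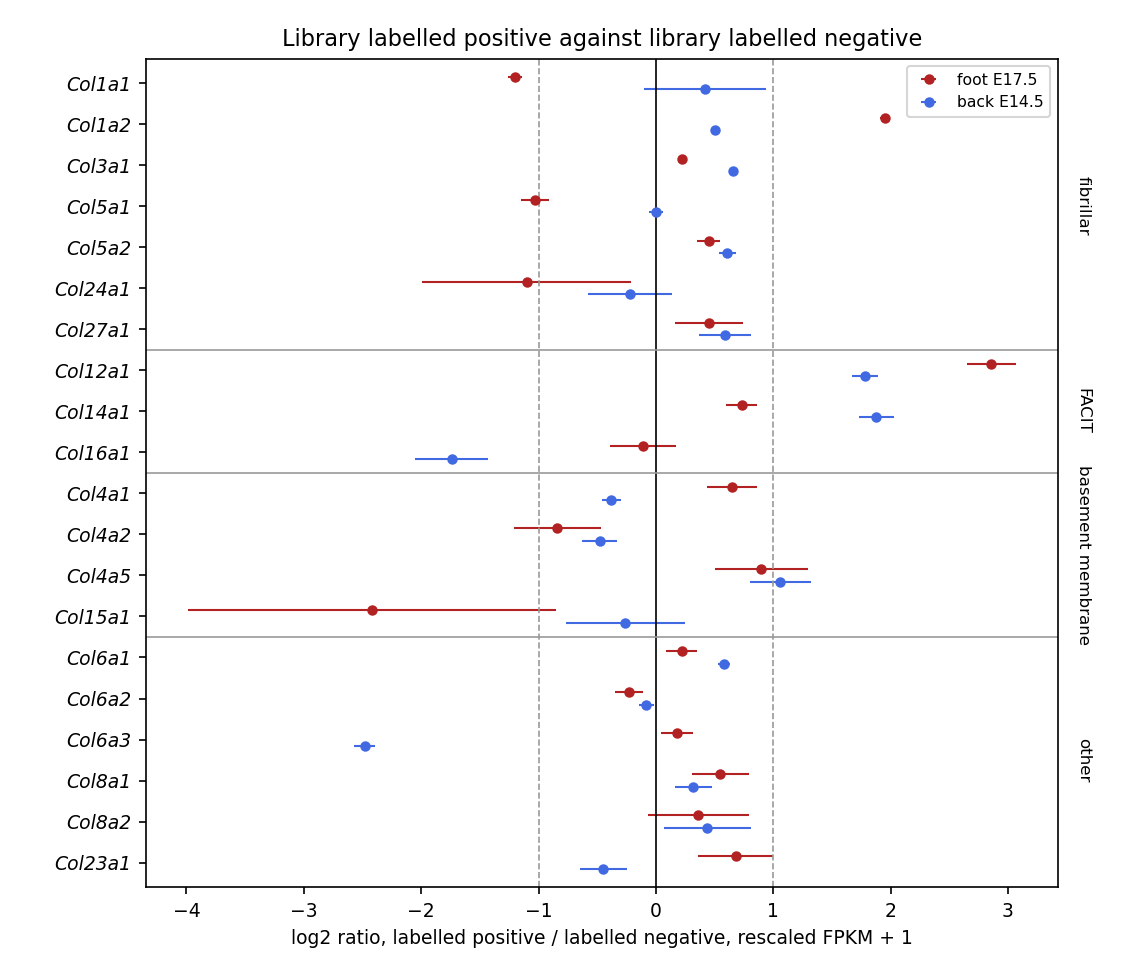
Log2 ratio of the library labelled positive to the library labelled negative in foot and back for the same 20 collagen genes, on rescaled FPKM + 1. Points are single pairs of libraries, bars combine the authors' bounds of both values and dashed lines mark a 2-fold difference. Col14a1, Col4a5, Col6a3 and Col16a1 lie beyond 2-fold in the back alone, and Col1a1, Col1a2, Col5a1, Col24a1 and Col15a1 in the foot alone.

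The difference between the foot and the back ratio asks whether the label goes with other collagens at each site, and it takes the sign of the foot label as given. The foot ratio was at least 2-fold above the back ratio for 6 of 20 collagens and below it for 4, where 13.0% and 14.1% of all genes were. Those above were Col6a3 (2.66 ± 0.16), Col16a1 (1.63 ± 0.42), Col1a2 (1.44 ± 0.05), Col23a1 (1.12 ± 0.37), Col12a1 (1.08 ± 0.24) and Col4a1 (1.02 ± 0.23). Those below were Col15a1 (-2.16 ± 1.65), Col1a1 (-1.62 ± 0.53), Col14a1 (-1.15 ± 0.20) and Col5a1 (-1.02 ± 0.13). With unnamed loci added, Col6a3 alone stayed above, at 2.38, and 6 were below. These included all 4 of the former and, in addition, Col12a1 at -2.22 and Col6a1 at -1.22. As deposited, without rescaling, 2 were above and 5 below, where 8.43% and 23.9% of all genes were, and Col1a2 (0.98), Col23a1 (0.73), Col12a1 (0.67) and Col4a1 (0.61) fell short. Scaled to the coding sum the counts were 4 and 4, where 11.4% and 16.1% of all genes were, with Col12a1 at 0.96 and Col4a1 at 0.91. Scaled to the upper quartile they were 3 and 4, where 10.7% and 16.7% were, with Col23a1 at 0.98, Col12a1 at 0.90 and Col4a1 at 0.89. With the foot labels exchanged, 6 were above and 6 below, where 13.9% and 14.3% of all genes were. Col6a3 (2.30), Col16a1 (1.85) and Col14a1 (-2.61) then kept their direction, and the other 7 turned, among them Col12a1 at -4.63, Col15a1 at 2.69 and Col1a2 at -2.45.

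Foot against back compares skins that differ in site and in stage. Between the libraries labelled positive, 6 of 19 collagens were higher in the foot and 1 lower, where 16.4% and 14.4% of all genes were. Col16a1 had a log2 ratio of 2.84 ± 0.31, Col14a1 of 1.35 ± 0.14, Col1a2 of 1.18 ± 0.03, Col8a2 of 1.17 ± 0.47, Col27a1 of 1.07 ± 0.27 and Col23a1 of 1.01 ± 0.30. Col1a1 was lower at -1.66 ± 0.53. Between the libraries labelled negative, 7 of 19 were higher and 2 lower, where 15.1% and 12.0% of all genes were. Col14a1 had 2.50 ± 0.13, Col15a1 1.73 ± 0.49, Col8a2 1.24 ± 0.32, Col16a1 1.22 ± 0.28, Col27a1 1.22 ± 0.24, Col3a1 1.19 ± 0.02 and Col5a2 1.05 ± 0.08. Col4a1 was lower at -1.84 ± 0.14 and Col6a3 at -1.78 ± 0.12.

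With this scaling Col14a1, Col16a1, Col27a1 and Col8a2 were called higher in the foot under both labels, 4 of the 18 collagens with enough signal in both pairs, where 6.47% of all 6970 such genes were. The split between higher and lower collagens moved with the scaling. The median ratio over the genes used for scaling was 0.22 as deposited for the positive label and 0.69 for the negative one, and ratios are given relative to it. Scaled to the coding sum, 2 collagens were higher and 5 lower for the positive label, where 11.8% and 19.5% of all genes were. Scaled to the upper quartile, 1 was higher and 7 lower, where 8.84% and 26.5% were, and for the negative label 2 and 3, where 9.68% and 20.2% were. None of the 4 genes then reached 2-fold for both labels. In the order positive and negative, Col14a1 had 0.80 and 2.13, Col16a1 2.31 and 0.83, Col27a1 0.57 and 0.89, and Col8a2 0.73 and 0.99. With the coding sum Col14a1 and Col16a1 kept both calls, while Col27a1 (0.83) and Col8a2 (0.96) fell short for the positive label.

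With unnamed loci, Col16a1 fell short of 2-fold for the positive label (0.50, or 2.20 with the part of its locus on the gene), as did Col23a1 (0.22) and Col1a1 (-0.69). Col4a1 did so for the negative label (-0.74), and Col12a1 went from -0.67 ± 0.16 to 2.46 there. The collagen medians were 0.11 and -0.04 for the positive and negative label, against 0.00 for all genes in each. Marker sums of other tissues differed between the same libraries. Log2 ratios of foot to back, positive label then negative, were 5.39 and 2.24 for tendon and -2.05 and -3.86 for keratinocyte markers. They were -3.20 and 0.96 for mast cell, -1 and -3.24 for leukocyte and -1.96 and -2.20 for endothelial markers. The mast cell value for the negative label came mostly from Cma1 (165 against 24.2 FPKM) and Tpsb2 (66.2 against 8.88). Cpa3 (32.7 against 49.9) went the other way there. Thbs4 made up most of both foot tendon sums, at 572 (far above its bounds) and 38.1 FPKM against 0.795 and 0.679 in the back. Tnmd went the other way for both labels, at 0.178 and 1.81 FPKM in the foot against 6.54 and 2.82 in the back. Fmod did so for the positive label alone (1.97 against 3.17). The part of these markers in the collagen differences was not tested.

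**Figure D3:**
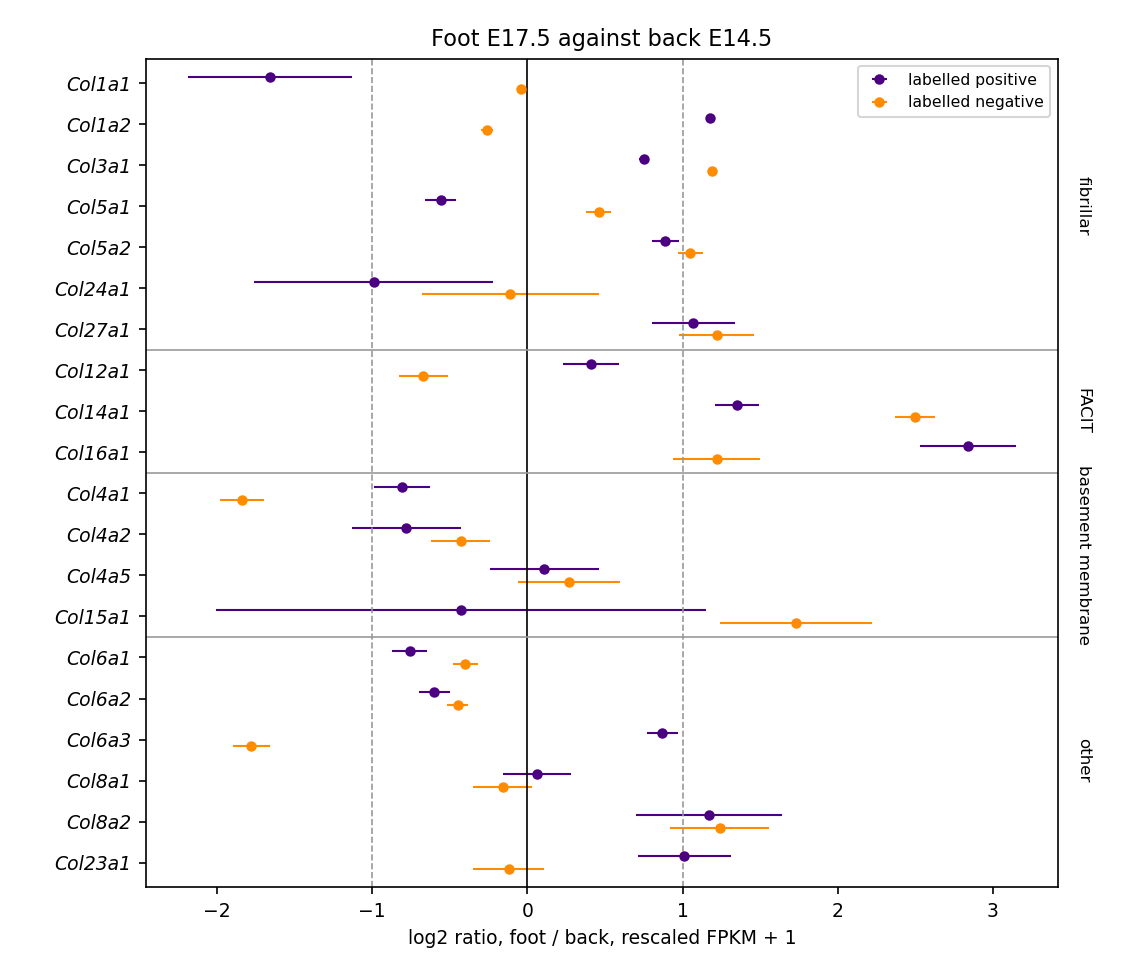
Log2 ratio of foot to back for the 20 collagen genes, for the libraries labelled positive and those labelled negative, on rescaled FPKM + 1. Points are single pairs of libraries, bars combine the authors' bounds and dashed lines mark a 2-fold difference. Col14a1, Col16a1, Col27a1 and Col8a2 lie beyond 2-fold on the foot side for both labels with the scaling plotted, which none of the 4 does with upper quartile scaling, and Col6a3 and Col4a1 beyond it on the back side for the libraries labelled negative.

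Across the 4 pairs of libraries, 16 of the 20 collagens that reached 5 FPKM were called at least once by their named entries. Among all 8617 such genes 47.2% were. Col4a2, Col6a1, Col6a2 and Col8a1 were called in none. Of these only Col8a1 stayed under 2-fold with each scaling tried. Col4a2 had -1.07 in the foot as deposited and -1.27 for foot against back labelled positive with the upper quartile, where Col6a1 had -1.31 and Col6a2 -1.15. In all, 32 unnamed loci of at least 300 bases overlapped 16 collagen genes, 15 of them reaching within 100 bases of the gene's 3′ end, and 9 genes were raised by over 1.5 times in a library. The loci numbered 4, 8, 14 and 6 in the 4 libraries, so they were not shared evenly. With them added, Col1a1, Col4a1 and Col23a1 were called in no pair of libraries. The share over all genes was not recomputed in that way. Why a locus stood apart from its gene was not tested.

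**Figure D4:**
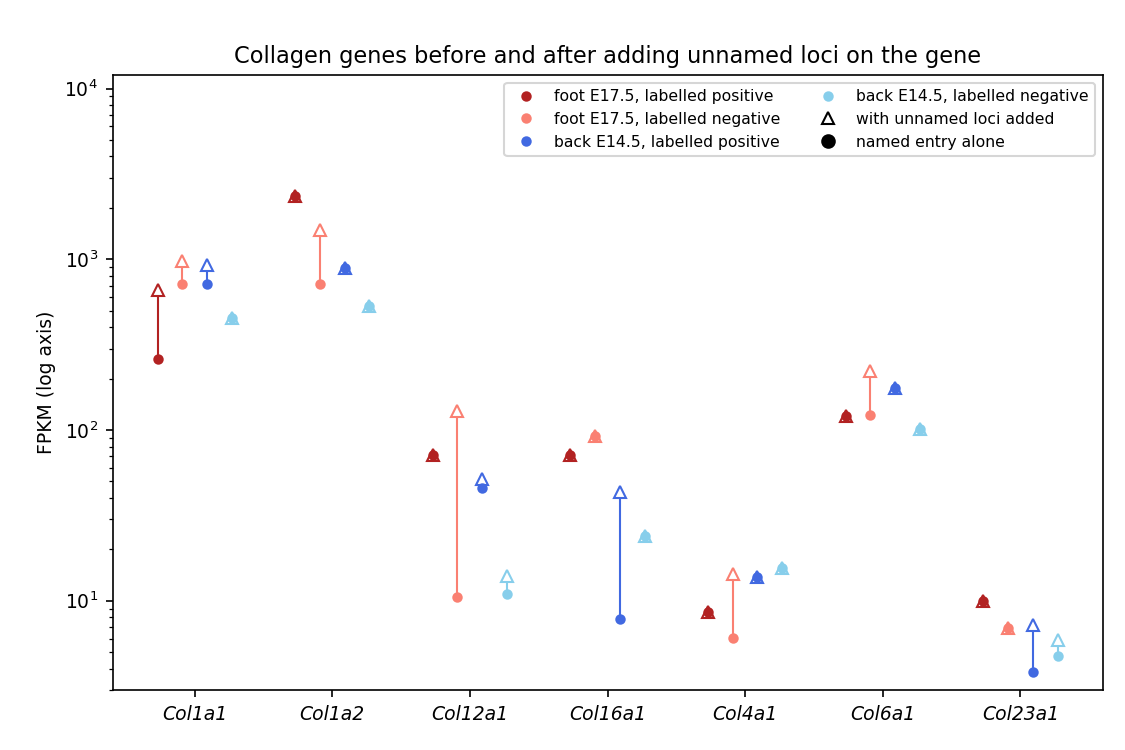
FPKM of the 7 collagen genes of at least 5 FPKM that unnamed loci raised by over 1.5 times in a library, on a log axis. Filled points are the named entries, open triangles the sum with the loci added (by length, or whole for the locus that spans Col12a1), and colours give the library. Col12a1 in the foot library labelled negative goes from 10.5 to 129 FPKM and Col16a1 in the back library labelled positive from 7.77 to 43.2.

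A list of 30 genes that modify, trim or cross-link collagen or serve as its receptors was followed as well. In the foot 0 of the 18 with enough signal were called after rescaling, where 10.7% of all genes were higher and 11.0% lower. As deposited and with the upper quartile 4 were lower, Plod1, Plod2, Serpinh1 and Loxl1, where 15.4% and 14.2% of all genes were, and with the coding sum Loxl1 alone. In the back 2 of 16 were higher in the library labelled positive and 1 was lower, where 4.36% and 3.92% of all genes were. Lox, which starts the cross-links of fibrils, was listed at 123, 123, 57.7 and 22.0 FPKM, with a log2 ratio of 1.14 ± 0.09 in the back. Lepre1, a prolyl 3-hydroxylase of fibrillar chains, was listed at 20.0, 31.0, 31.7 and 12.2, with 1.10 ± 0.16. Bmp1, which removes the C-propeptide of procollagens, was listed at 13.3, 16.4, 15.7 and 33.1 (the last above its bounds of 20.9 to 26.7), with -1.25 ± 0.14. Serpinh1, the collagen chaperone HSP47, was listed at 202, 417, 236 and 281 FPKM and was below 2-fold in every pair after rescaling.

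Between foot and back, P4ha3, a catalytic subunit of prolyl 4-hydroxylase, was higher in the foot for both labels, at 8.07 and 9.08 FPKM against 0.997 and 0.681. Its log2 ratios were 2.03 ± 0.38 and 2.13 ± 0.33. Its relative P4ha1 (-1.40 ± 0.23), the lysyl hydroxylase gene Plod1 (-1.34 ± 0.39), the N-propeptide protease gene Adamts2 (-1.19 ± 0.52) and the collagen receptor gene Ddr2 (-1.26 ± 0.23) were lower in the foot for the positive label. For the negative label Loxl1 (2.35 ± 0.26) and Lox (1.76 ± 0.08) were higher and Bmp1 (-1.62 ± 0.18) lower. That made 1 higher and 4 lower of 18 for the positive label, where 16.4% and 14.4% of all genes were, and 3 and 1 of 18 for the negative label, where 15.1% and 12.0% were. In the difference between the skins Bmp1 stood at 1.2 ± 0.41, Lepre1 at -1.47 ± 0.41 and Loxl1 at -1.73 ± 0.39, the 3 called of 19, where 13.0% of all genes were above and 14.1% below.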

How the data were processed

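RNA from FACS-sorted dermal cells was sequenced as Illumina TruSeq mRNA libraries, per the labels' protocols. The authors used TopHat and Cufflinks with mm9, per the submitters' processing notes; no version or annotation is named. Each deposited table gives FPKM per gene or assembled locus, with bounds and a status, per the file headers. Entries of one symbol were summed and units kept where present in all 4 tables; 22 symbols turned into dates were restored by identifier. Values were divided by median-ratio factors (1.08, 1.27, 0.924 and 0.791) over 3104 coding genes of at least 5 FPKM in all libraries, and log2 ratios taken with a pseudocount of 1 FPKM. Genes with a status other than OK (455 units) were left out of calls. Unnamed loci of at least 300 bases on a collagen gene were added as FPKM × span / transcript length (GENCODE vM21), or whole where they spanned 50% of the gene or more or exceeded the transcript length. Members reaching 5 FPKM and pathway genes at least 2-fold apart were named, up to 4 per pathway group and comparison. Members and lists were chosen with earlier results of these data known. Alternatives covered scaling, pseudocount, filters, bounds and exchanged foot labels. The ratio script, tested on simulated data, used Python 3.11.15, numpy 2.4.6 and pandas 2.3.3. No test was possible with 1 library per group.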

Additional observations from a re-analysis of the deposited data

Results flagged for a closer look

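Signal over collagen genes was found in entries the main comparisons do not use, the assembled loci without a gene name. The 7 below were those over a gene of at least 5 FPKM that raised it by over 1.5 times. In the foot library labelled negative they lay over Col12a1 (119 FPKM), Col1a2 (1884 FPKM), Col6a1 (297 FPKM) and Col4a1 (36.0 FPKM). In the back library labelled positive they lay over Col16a1 (59.2 FPKM) and Col23a1 (5.04 FPKM), and in the foot library labelled positive over Col1a1 (1219 FPKM). Of the 3115 bases over Col16a1, 2686 lay past the annotated end of the gene. The loci over Col12a1 and Col6a1 had values above their own bounds. The cause of their separation from the named entries was not tested.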

How the results depend on the processing

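No paired analysis was possible because each group holds 1 library. Of 71 counts of collagens at least 2-fold apart, 68 stayed within 1.5 times of the main count. The totals here include settings that could hardly move a collagen. Each collagen had 1 entry per symbol, and no called collagen was listed at 0. Leaving out values outside their bounds dropped genes and left the ratios of the called genes it kept unchanged. It took the count from 9 to 6 for foot against back labelled negative and from 10 to 7 for the difference. For foot against back labelled positive the count went from 7 to 5. A count can also stay while its split turns. Foot against back labelled positive went from 6 higher and 1 lower to 1 and 7 with upper quartile scaling. The foot label count fell from 6 to 3 with unnamed loci added, whole or by the part on the gene, and the foot against back count for the negative label was 5 in place of 9 with upper quartile scaling. Of 61 medians 48 stayed. As deposited, the medians were 0.50 in the back, 0.65 for foot against back labelled negative and -0.53 for the difference. With upper quartile scaling they were -0.36 and -0.37 for foot against back labelled positive and negative. With unnamed loci, added either way, they were -0.11 in the foot and 0.46 for foot against back labelled negative. Without values outside their bounds they were 0.04 in the back and 0.27 for foot against back labelled negative, without a minimum mean 0.04 in the back, and with a mean of at least 5 FPKM 0.41 for foot against back labelled positive. Unnamed loci by span reversed Col12a1 in the foot (-0.61), Col16a1 in the back (0.61), and in the difference Col12a1 (-2.22), Col16a1 (-0.72) and Col4a1 (-0.08), and by the part on the gene the same without Col16a1, which had 0.98. Exchanging the foot labels, added after seeing the data like the unnamed loci, turned in the difference Col1a1 (0.77), Col1a2 (-2.45), Col5a1 (1.03), Col12a1 (-4.63), Col4a1 (-0.27), Col15a1 (2.69) and Col23a1 (-0.23). Of 371 values of single genes, 273 stayed, 83 moved and 15 reversed. The sum scaling and the share over all named entries were replaced by coding sums, since 24 to 1835 entries over 100000 FPKM held 81.1% to 98.1% of all FPKM. The cause of these shifts was not tested. Without read counts no interval from depth could be given, and the foot bounds are the wider ones.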

Other observations

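Several collagen genes are neighbours in mm9, and their levels can be set side by side. Besides the pairs described above, Col4a4 and Col4a3 start 71 bases apart on opposite strands and were both at or near 0, at 0.0414 FPKM or less. Col9a1 and Col19a1 lie 9.15 kb apart, at 0 to 1.26 FPKM and 0 to 0.0861 FPKM. Col6a2 and Col6a1 lie 85.2 kb apart on the same strand, and by named entries the ratio of Col6a1 to Col6a2 was 1.83, 1.34, 2.03 and 1.29 in the libraries labelled positive and negative of the foot, then of the back. In the foot library labelled negative an unnamed locus brought Col6a1 from 123 to 223 FPKM, beside 91.8 for Col6a2. The order of these ratios therefore holds for the named entries alone. Col6a6, Col6a5 and Col6a4, in a row with gaps of 28.0 and 28.8 kb, did not exceed 1.62 FPKM.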
